A study of Mus musculus with 6 samples.

Results

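Intercalated cells are the acid-base cells of the distal nephron and collecting duct. The 10 genes described here, Atp6v1b1, Atp6v0d2, Atp6v1g3, Slc4a1, Slc4a9, Slc26a4, Foxi1, Atp12a, Car2 and Rhcg, were taken by name. The array holds 37325 distinct entries by gene, a count that includes 381 unnamed probes. All 10 genes were present, 8 with 1 probe and 2 (Slc4a9 and Atp6v0d2) with 2 probes. Of the 12 probes, 11 were well above background on all 6 arrays. The exception was the probe of Atp12a, which was dim on every WT array.

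RNA came from the kidney cortex of male C57BL/6 mice, 3 arrays from wild-type (WT) controls and 3 from C3aR-/- controls, which lack the receptor for the complement fragment C3a. Per the labels, the controls ate normal chow with 10% of calories from fat from 8 weeks of age, received vehicle injections and no streptozotocin, and were killed 20 weeks after the induction step. The diabetic arms of the study were not analysed here. How the C3aR-/- allele was made, and whether littermates served as WT, was not stated in the labels. Nor do they say that each array is a separate animal, so a p-value here reflects only how far these arrays spread, which may be technical.

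As background, type A intercalated cells secrete acid: carbonic anhydrase II makes protons and bicarbonate, a vacuolar proton pump (V-ATPase) in the apical membrane moves the protons into the urine, and the chloride-bicarbonate exchanger AE1 returns the bicarbonate to the blood. Type B cells do the reverse, with the exchanger pendrin in the apical membrane and AE4 in the basolateral membrane. The forkhead factor Foxi1 is needed for intercalated cells to form.

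Levels are on the log2 scale, with the 75th percentile of the processed signal of each array set to 0, and are listed in the order of replicates 1, 2 and 3. Changes are C3aR-/- minus WT on that scale, tested with limma over 20489 genes with Benjamini-Hochberg adjustment and a threshold of 0.05. Over all genes 14.3% were called, 7.06% higher and 7.27% lower in C3aR-/- cortex, and 41.3% did not overlap between genotypes, 22.2% higher and 19.1% lower. Probes differ in how strongly they bind, so no gene was ranked above another by level. Where a gene was subtracted from another within an array, only the shift between arrays was read. All WT arrays lay on 1 slide and all C3aR-/- arrays on another, each slide with its own scan, so slide and genotype cannot be told apart in any result. C3aR-/- replicate 1 stood apart, with 145 non-uniform spots against 2 to 8 on the other arrays. The probe of C3ar1, the deleted gene, was well above background on 1 of 6 arrays (WT replicate 1), so it gives no check of the labels. Pck1, a gene of the cortical proximal tubule, was at 6.31 ± 0.07 (SD, n = 3) in WT, while Slc14a2, a urea transporter of the inner medulla, was above background on 2 of 6 arrays, both C3aR-/-.

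Of the 10 genes, 3 were called, Slc4a1 lower and Slc4a9 and Atp12a higher in C3aR-/- cortex. Without 1 array the count was 0 (WT replicate 1 or 2), 1 (C3aR-/- replicate 2 or 3), 2 (WT replicate 3) or 3 (C3aR-/- replicate 1). Atp12a passed the filter on dim probes only through the C3aR-/- arrays. Among the 9 genes detected on all 6 arrays 2 were called, where 13.9% of the 19250 genes detected on all arrays were called. The genotypes did not overlap in 6 of these 9 genes, against 41.2% of all such genes. The median absolute change of the 9 genes was 0.18, and that of all genes detected on all arrays was 0.17. The median signed change of the 9 genes was 0.01, with 4 genes clear of overlap on the higher side and 2 on the lower side.

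**Figure D1:**
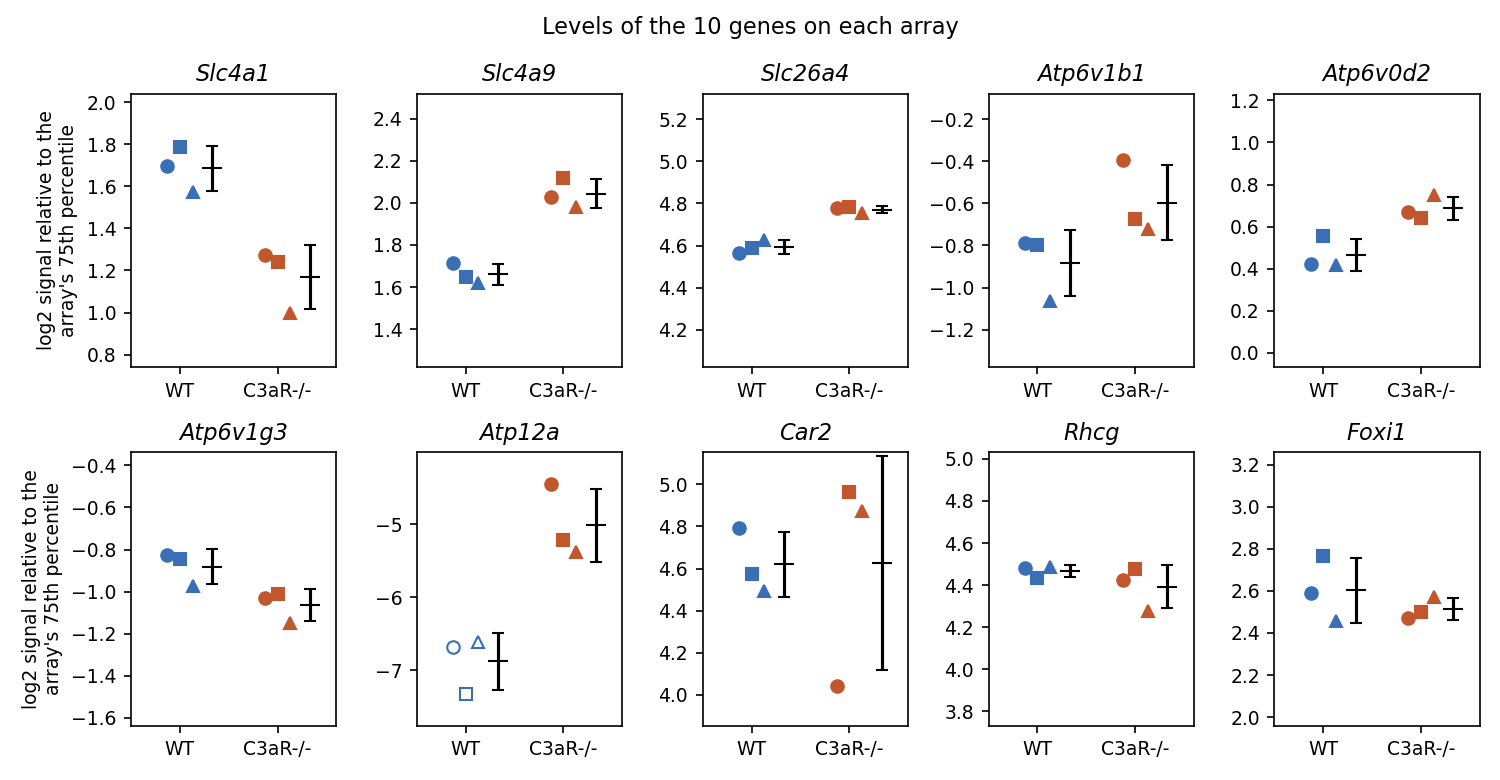
Level of each of the 10 genes on each array, on the log2 scale with the 75th percentile of each array at 0, by the probe that stands for the gene. Circles, squares and triangles are replicates 1, 2 and 3, open symbols are not well above background, black bars are mean ± SD of 3 arrays, and each panel has its own axis. Slc4a1 lies lower and Slc4a9 higher on every C3aR-/- array, and Car2 is lowest on C3aR-/- replicate 1.

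Slc4a1 encodes AE1, which sits in the basolateral membrane of type A cells and in the membrane of red cells. Its probe lies at mm9 chromosome 11, 102210256 to 102210315. The level was 1.70, 1.79 and 1.57 on the WT arrays and 1.27, 1.24 and 0.996 on the C3aR-/- arrays. Every C3aR-/- array was below every WT array. The mean was 1.68 ± 0.11 (SD, n = 3) in WT and 1.17 ± 0.15 (SD, n = 3) in C3aR-/- cortex, a 1.43-fold fall (log2 change -0.51, SE 0.10, limma adjusted p = 0.0286). The direction held without each array, but the call was lost without WT replicate 1 (adjusted p = 0.0821), WT replicate 2 (0.0831), C3aR-/- replicate 2 (0.0644) or C3aR-/- replicate 3 (0.0728). Over 18 alternatives the adjusted p ran from 0.0128 to 0.0831. In bulk cortex, fewer cells of a type and less RNA per cell cannot be told apart, here and in all results below.

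Because red cells also make AE1, red cell genes are given beside it. Of 11 red cell markers on the array, 3 were not above background on any array, and 6 were tested. None of the 6 was called by limma, and 0 had an unadjusted p under 0.05. Alas2, the haem synthesis enzyme of red cell precursors, had a log2 change of -0.54 (SE 0.41, adjusted p = 0.403). Its levels were 0.94, 2.11 and 1.69 in WT and 0.39, 1.68 and 1.06 on the C3aR-/- arrays. The Alas2 arrays overlapped between genotypes. Slc4a1 minus Alas2, within each array, was 0.75, -0.33 and -0.12 in WT and 0.88, -0.44 and -0.07 in C3aR-/- arrays, which overlapped, with a shift of 0.02. The other red cell genes below 0 were the beta globins Hbb-b1 (-0.39, SE 0.43) and Hbb-bt (-0.39, SE 0.35) and the cytoskeletal gene Tmod1 (-0.34, SE 0.18). In all, 4 of the 6 genes were below 0, and the median was -0.36, beside 0.02 over all genes. Hba-a1, alpha globin, had a log2 change of 0.14 (SE 0.08, limma adjusted p = 0.276), while its second probe read -0.18, so the probes disagree in sign. Hba-a2, also alpha globin, had the smallest p of the list and was above 0, at 0.17 (SE 0.08, adjusted p = 0.193). The summed linear level of the list, most of it from the bright alpha globin probes, was 383 to 449.9 in WT and 388 to 488 in C3aR-/- arrays, as multiples of the 75th percentile. The part of red cell RNA in the Slc4a1 difference was not tested.

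Slc4a9 encodes AE4, the basolateral exchanger of type B cells. Its brighter probe lies at mm9 chromosome 18, 36700885 to 36700944. The level was 1.72, 1.65 and 1.62 on the WT arrays and 2.03, 2.12 and 1.98 on the C3aR-/- arrays. All C3aR-/- arrays were above all WT arrays. The mean rose from 1.66 ± 0.05 (SD, n = 3) to 2.04 ± 0.07 (SD, n = 3), or 1.30-fold (log2 change 0.38, SE 0.065, limma adjusted p = 0.021). The other probe, at 36699368 to 36699427, was at -0.13, -0.28 and -0.36 in WT and 0.16, 0.07 and 0.04 in C3aR-/- arrays. It had a log2 change of 0.35 (SE 0.08, adjusted p = 0.0484 over 30866 probes, of which 11.6% were called). The 2 probes were named for different RefSeq transcripts and moved alike. The call by the brighter probe was kept without C3aR-/- replicate 1 and lost without any other array. The adjusted p was 0.0562, 0.0656 and 0.0557 without WT replicates 1, 2 and 3, and 0.0603 and 0.0609 without C3aR-/- replicates 2 and 3. With dim probes kept in the test it was 0.0594 and with replicate number as a block 0.0694, so the call was lost there too. Over 18 alternatives the adjusted p ran from 0.00658 to 0.0694.

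Slc26a4 encodes pendrin, the apical exchanger that secretes bicarbonate and reabsorbs chloride in type B cells (mm9 chromosome 12, 32204766 to 32204825). The level was 4.56, 4.59 and 4.63 in WT and 4.78, 4.78 and 4.75 on the C3aR-/- arrays. The groups did not overlap, with the narrowest spread of the 10 genes in C3aR-/- cortex (SD 0.02, n = 3). The log2 change of 0.18 (SE 0.05, 95% interval 0.04 to 0.31, limma adjusted p = 0.0802) did not pass. It stayed positive under all 18 alternatives, at 0.15 to 0.23, and none of them called it (adjusted p = 0.051 to 0.206).

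The relation of the exchangers within an array does not depend on how the array is scaled. Only a shift of such a difference between arrays can be read, not its size. The pairs were chosen with the results known and carry no test. Slc4a1 minus Slc26a4 was -2.87, -2.80 and -3.06 in WT and -3.50, -3.54 and -3.76 on the C3aR-/- arrays, a shift of -0.69. Slc4a1 minus Slc4a9 was -0.02, 0.14 and -0.05 in WT and -0.76, -0.88 and -0.99 in C3aR-/- replicates, a shift of -0.90. Set against Slc26a4 and against Slc4a9, Slc4a1 was lower on every C3aR-/- array than on any WT array. Red cells also make AE1, and their part in these shifts was not tested. Slc4a9 minus Slc26a4 moved by 0.20, from -2.93 ± 0.08 to -2.73 ± 0.06 (SD, n = 3 each).

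**Figure D2:**
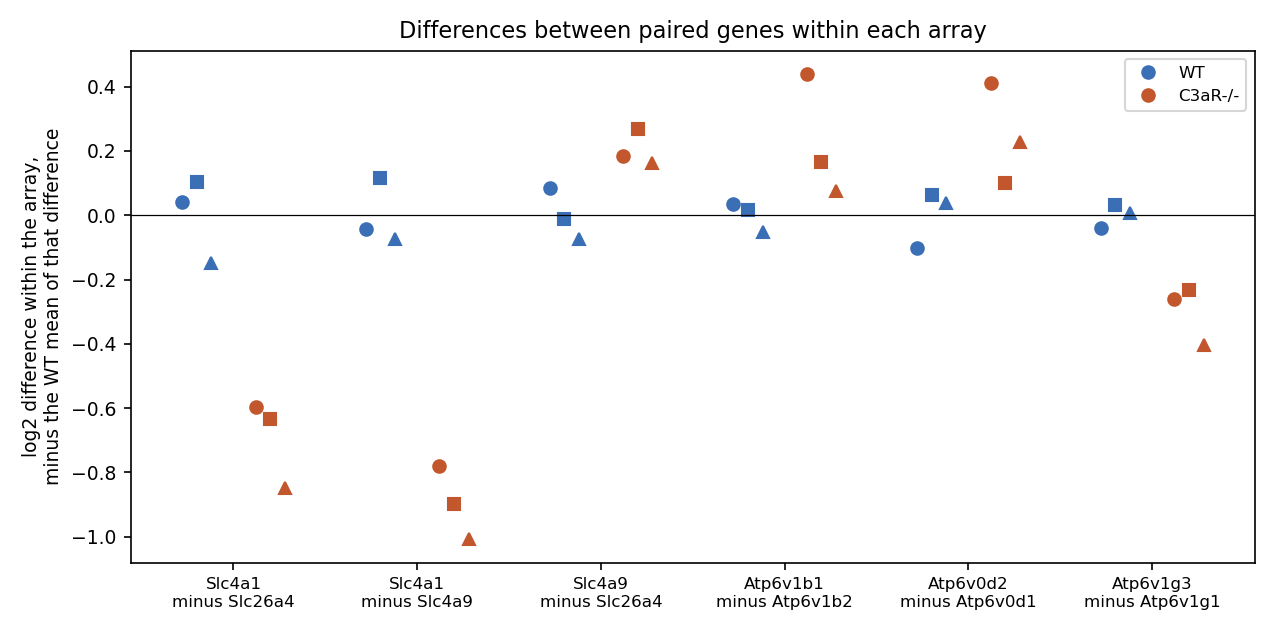
Difference in log2 level between paired genes on the same array, with the WT mean of that difference subtracted. Blue is WT and orange C3aR-/-, and circles, squares and triangles are replicates 1, 2 and 3. The shift is largest for Slc4a1 minus Slc4a9, at -0.90, and the 6 pairs shown do not overlap between genotypes, unlike Slc4a1 minus Alas2 (shift 0.02), which is not drawn.

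The V-ATPase is built from a V1 sector, which splits ATP, and a V0 sector, which carries protons through the membrane. Most subunits are made in all cells, while intercalated cells use their own forms of a few. Atp6v1b1 encodes the B1 form of the ATP-binding B subunit, whose loss causes renal tubular acidosis with deafness in people. Its probe covers 60 bases that lie within 979 bases of mm9 chromosome 6 (83706880 to 83707858), so it crosses at least 1 intron. Atp6v0d2 encodes the d2 form of the V0 d subunit, also used by osteoclasts and some macrophages. Its brighter probe lies at mm9 chromosome 4, 19805367 to 19805426, and its dimmer one at 19837769 to 19837828. The sequences of these 3 probes are shown because the pump results rest on them, and the second Atp6v0d2 probe reads the same gene on the same arrays.

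Atp6v1b1 probe: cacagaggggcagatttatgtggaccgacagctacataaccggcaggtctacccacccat

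Atp6v0d2 brighter probe: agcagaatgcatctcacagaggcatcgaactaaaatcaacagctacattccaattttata

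Atp6v0d2 dimmer probe: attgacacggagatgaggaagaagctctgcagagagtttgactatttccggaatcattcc

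Atp6v1b1 was at -0.79, -0.80 and -1.06 in WT and -0.39, -0.67 and -0.72 on the C3aR-/- arrays. The groups did not overlap, and C3aR-/- replicate 1 was the highest. The log2 change of 0.29 (SE 0.12, 95% interval -0.01 to 0.58, limma adjusted p = 0.162) did not pass and was 0.18 without C3aR-/- replicate 1. The brighter probe of Atp6v0d2 was at 0.42, 0.55 and 0.42 in WT and 0.67, 0.64 and 0.75 in C3aR-/- arrays, with a log2 change of 0.22 (SE 0.07, adjusted p = 0.0811). Its dimmer probe was at -2.73, -2.61 and -2.81 in WT and -2.43, -2.40 and -2.22 in C3aR-/- arrays, with a change of 0.37 (SE 0.09, adjusted p = 0.0506 over all probes). Neither probe overlapped between genotypes, and neither passed. Of 18 alternatives, array weights alone called Atp6v0d2 (0.24, adjusted p = 0.0491, within a range of 0.0491 to 0.215).

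Atp6v1g3 encodes the G3 form of a stalk subunit (mm9 chromosome 1, 140185743 to 140185802). It went the other way from Atp6v1b1 and Atp6v0d2. The level was -0.83, -0.84 and -0.98 in WT and -1.03, -1.01 and -1.15 on the C3aR-/- arrays, again without overlap. The log2 change of -0.18 (SE 0.07, 95% interval -0.36 to -0.003, limma adjusted p = 0.145) did not pass. In both genotypes replicate 3 was the lowest array, as it was for Slc4a1.

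Each of these subunits has a partner form made in most cells. Atp6v1b2 had a log2 change of 0.06 (SE 0.07), Atp6v0d1 of -0.02 (SE 0.10) and Atp6v1g1 of 0.12 (SE 0.07), with limma adjusted p values of 0.607, 0.878 and 0.287. A second Atp6v1b2 probe read -0.05, so its probes disagree in sign. Within each array, Atp6v1b1 minus Atp6v1b2 was shifted by 0.23 in C3aR-/- cortex and Atp6v0d2 minus Atp6v0d1 by 0.25. Atp6v1g3 minus Atp6v1g1 was shifted by -0.30. The genotypes did not overlap in any of these 3 differences, which carry no test.

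Of 20 other V-ATPase genes on the array 19 were tested, with Atp6v1d left out because its spot on C3aR-/- replicate 1 was flagged. By limma 0 rose and 0 fell (2 higher and 0 lower with p below 0.05 before adjustment), with a median change of 0.06 and a range from -0.17 to 0.20 by the brightest probe of each gene. Over all 30 probes of the list the range was -0.33 to 0.68, both ends from further probes of Atp6v1h, a V1 subunit whose brightest probe read -0.03. All genes tested had a median of 0.02. Atp6v1f, a V1 subunit, was at 0.15 (SE 0.06, adjusted p = 0.13). Atp6ap1, an accessory protein, was at 0.16 (SE 0.06, adjusted p = 0.122), and its second probe read 0.48. Atp6v0a4, the a4 form of the V0 a subunit that intercalated cells use, was at 3.77, 3.86 and 3.93 in WT and 4.34, 3.87 and 3.95 in C3aR-/- arrays. Its change of 0.20 (SE 0.13, adjusted p = 0.349) did not pass, C3aR-/- replicate 1 was the highest array, and the groups overlapped.

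Macrophage and osteoclast genes are given beside Atp6v0d2. Of 12 on the array 10 were tested, with 1 higher and 1 lower. Cd68, a lysosomal protein of macrophages, fell by 0.58 (SE 0.10, limma adjusted p = 0.023), and its second probe read -0.64. The count of 2 was 0 without WT replicate 1, WT replicate 2 or C3aR-/- replicate 3, and 1 without WT replicate 3. Cd14 was called at 0.41 by its brighter probe, but its other probe was at -0.53, so no direction is given. Dcstamp and Mmp9 were not above background on any array. The summed level of the list was 68.5 to 77.3 in WT and 61.9 to 70.5 in C3aR-/- arrays. Most of that sum came from the bright Acp5 probe (-0.16, SE 0.06, adjusted p = 0.135). The part of these cells in the Atp6v0d2 values was not tested.

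Atp12a encodes the non-gastric proton-potassium pump, which in the collecting duct takes up potassium in exchange for protons. Its probe (mm9 chromosome 14, 57005794 to 57006021, a span of 228 bases) also crosses at least 1 intron. Its sequence is shown because the fold change of this gene depends on how a dim probe is read.

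Atp12a probe: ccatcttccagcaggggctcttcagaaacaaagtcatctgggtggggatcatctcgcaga

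Its signal before scaling read 6.67, 4.13 and 6.97 on the WT arrays, on no array well above background. It was 32.7, 22.3 and 17.6 on the C3aR-/- arrays, above background on all 3. The lowest signal of any probe well above background was 18.9 to 19.6 on WT arrays and 17.0 to 18.7 on C3aR-/- arrays, so the signals of C3aR-/- replicates 2 and 3 lay close to that floor. With the WT arrays set to the floor, Atp12a was at least 1.08-fold higher in C3aR-/- cortex (log2 bound 0.12). That bound rested on C3aR-/- replicate 1: without it the log2 difference from the WT floor was -0.17, so no fold can be given. The fitted change of 1.86 (SE 0.30, limma adjusted p = 0.0194) uses the WT values below the floor and is not a measured fold. With dim values at the floor the change was 0.12 (adjusted p = 0.761) and with normexp background correction 0.28 (adjusted p = 0.14). Over 17 alternatives the adjusted p ran from 0.012 to 0.761, with 0.0517 without WT replicate 1 and 0.0573 without WT replicate 2. Atp4a, the catalytic subunit of the gastric form of the pump, was at 1.07, 1.105 and 1.03 in WT and 1.31, 1.498 and 1.24 in C3aR-/- arrays. Its change of 0.28 (SE 0.08, adjusted p = 0.0757) did not pass, and a further Atp4a probe read 0.37.

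Atp12a and Rhcg are also made by other epithelia, so urothelial genes were read as well. Of 9 urothelial markers on the array, 5 (Upk1b, Upk2, Upk3a, Upk3b and Psca) were not above background on any array. The uroplakin gene Upk1a fell by 0.35 (SE 0.07, limma adjusted p = 0.0315), a call lost without any 1 array. Krt20, a keratin of surface urothelium, was at 1.0 (SE 0.27, adjusted p = 0.0617), which did not pass, with 2 of 3 WT and 3 of 3 C3aR-/- arrays above background. The summed level of the list was 7.11 to 7.54 in WT and 6.40 to 7.15 in C3aR-/- arrays. Nearly all of it came from the Trp63 probe (-0.10, SE 0.07, adjusted p = 0.374), so the sum says little about the other markers.

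**Figure D3:**
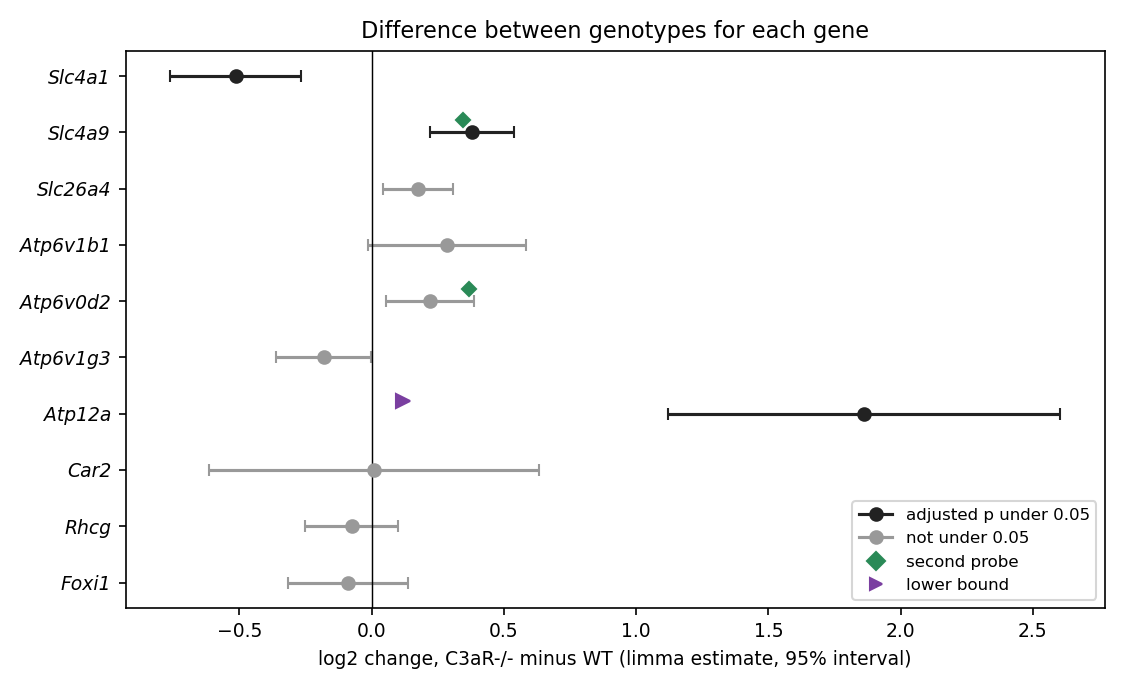
Change of each of the 10 genes, C3aR-/- minus WT on the log2 scale, with its 95% interval from the limma fit; black marks an adjusted p under 0.05 and grey the rest. Green diamonds are the second probes of Slc4a9 (0.35) and Atp6v0d2 (0.37), and the purple arrow is the lower bound of 0.12 for Atp12a, whose fitted value uses WT signals below the floor. That bound rests on C3aR-/- replicate 1, and without it the value is -0.17, so no fold is given.

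Car2 encodes carbonic anhydrase II (mm9 chromosome 3, 14900206 to 14900265), which is made in intercalated cells and at a lower level in other tubule cells, and also in red cells. The level was 4.79, 4.57 and 4.49 on the WT arrays and 4.04, 4.96 and 4.87 on the C3aR-/- arrays. C3aR-/- replicate 1 was the lowest and C3aR-/- replicates 2 and 3 the highest arrays of all 6. The SD was 0.16 in WT and 0.51 in C3aR-/- cortex (n = 3 each), and the change of 0.01 (SE 0.26) had a 95% interval from -0.62 to 0.63. Without C3aR-/- replicate 1 the change was 0.30 (limma adjusted p = 0.154, within a range of 0.154 to 0.988 over 18 alternatives). No direction can be given.

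Rhcg encodes an ammonia channel of intercalated and principal cells (mm9 chromosome 7, 86738278 to 86738337). The level was 4.48, 4.44 and 4.49 in WT and 4.42, 4.48 and 4.28 in C3aR-/- arrays, which overlapped. The change of -0.08 (SE 0.07, 95% interval -0.25 to 0.10, limma adjusted p = 0.493) did not pass.

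Foxi1, the transcription factor (mm9 chromosome 11, 34104352 to 34104411), was at 2.59, 2.76 and 2.46 in WT and 2.47, 2.50 and 2.57 in C3aR-/- arrays. The C3aR-/- arrays all lay within the WT range. The change of -0.09 (SE 0.09, limma adjusted p = 0.536) had a 95% interval from -0.31 to 0.14. That interval does not reach the estimates of Slc4a1 (-0.51) or Slc4a9 (0.38). It overlaps the 95% interval of Slc4a1, -0.76 to -0.27, while that of Slc4a9 was 0.22 to 0.54. Whether Foxi1 changed by less than either gene was not tested.

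Forkhead factors bind sites with the letters TGTTTAC or TGTTTAT. Windows of 300 bases around the gene start were held for 5 of the 10 genes in the RefSeq table (GRCm38.p6). On either strand, 1 of the 5 windows held such letters, against 7.97% of 32851 windows (3.65% for TGTTTAC and 4.6% for TGTTTAT). That window was of Atp6v1b1, with TGTTTAC starting 98 bases before the gene start. The 250 bases before the start are shown 5′ to 3′ on the strand of the gene, with the matching letters in capitals, for Atp6v1b1 (+ strand, chr6:83742767-83743016). They are shown beside those for Slc26a4 (- strand, chr12:31559985-31560234), which held no match.

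Atp6v1b1: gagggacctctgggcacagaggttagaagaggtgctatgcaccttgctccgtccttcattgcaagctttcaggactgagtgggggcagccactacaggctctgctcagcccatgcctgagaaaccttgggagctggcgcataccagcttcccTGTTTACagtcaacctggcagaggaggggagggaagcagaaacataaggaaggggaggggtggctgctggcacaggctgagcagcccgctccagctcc

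Slc26a4: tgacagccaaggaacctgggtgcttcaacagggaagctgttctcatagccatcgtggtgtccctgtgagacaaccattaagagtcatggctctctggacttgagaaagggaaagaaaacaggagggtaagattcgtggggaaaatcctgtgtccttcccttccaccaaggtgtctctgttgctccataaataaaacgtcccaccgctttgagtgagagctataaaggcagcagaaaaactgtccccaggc

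A match of letters is a description and not a bound site. The windows of Atp6v1g3, Rhcg and Foxi1 held no match.

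Of 21 other genes of intercalated cells on the array 20 were tested. By limma 1 rose and 0 fell, where 14.3% of all genes were called. Before adjustment, 5 higher and 0 lower had p below 0.05. Their median change by the brightest probe of each gene was 0.10, with a range from -0.13 to 0.30. Over all 33 probes of the list the range was -1.42 to 0.56, the ends being further probes of Tfcp2l1 and Hepacam2. The brightest Tfcp2l1 probe read 0.06, so its probes disagree in sign. Slc26a7, a chloride-bicarbonate exchanger, was not above background on any array. The count of 1 stayed at 1 without WT replicate 3 and was 0 without any other single array. P2ry14, a receptor for UDP-glucose found on type A cells, was at 0.30 (SE 0.09, adjusted p = 0.0672). Slc26a11, an anion transporter, was at 0.24 (SE 0.09, adjusted p = 0.118), and its second probe read 0.22.

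Of 11 principal cell markers tested 3 rose and 0 fell, where 14.3% of all genes were called. Their median change was 0.10, with 8 changes above 0 and 3 below. Those below were Kcnj1 (-0.11, SE 0.05), Fxyd4 (-0.03, SE 0.11) and Aqp4 (-0.74, SE 0.73). Further Aqp4 probes read -0.13 and 0.02, so its probes disagree in sign. Aqp2, the vasopressin-regulated water channel, was at 1.72, 1.66 and 1.83 in WT and 2.59, 2.68 and 2.59 in C3aR-/- arrays, a rise of 0.88 (SE 0.07, limma adjusted p = 0.00374). Aqp3 rose by 0.40 (SE 0.09) and Scnn1g, a subunit of the epithelial sodium channel, by 0.48 (SE 0.11). The count of 3 was 1 without any single array. Slc26a4 minus Aqp2, within each array, was 2.86 ± 0.07 in WT and 2.15 ± 0.04 in C3aR-/- cortex (SD, n = 3 each). Of 10 proximal tubule acid-base and transport genes 4 rose and 0 fell. By the brightest probe of each gene all 10 changes were positive, with a median of 0.31. Glud1, at 0.16 by its brightest probe, had further probes at 0.15 and -0.14, so its probes disagree in sign. Car14, a membrane carbonic anhydrase, rose by 0.72 (SE 0.17, adjusted p = 0.0428) and Pck1, an enzyme of ammonia and glucose production, by 0.61 (SE 0.11, adjusted p = 0.023). That count was 0 to 2 without 1 array, and 0 without WT replicate 2 or C3aR-/- replicate 2. Of 5 medullary loop and inner medulla markers tested, limma called 0 (1 at an unadjusted p under 0.05). Of these genes 1 did not overlap between genotypes, against 41.3% of all genes. Their summed level was 216 to 226 in WT and 228 to 244 in C3aR-/- arrays, which did not overlap. Most of that sum came from the bright Umod probe, which overlapped between genotypes (0.08, SE 0.07, adjusted p = 0.439). The part of medullary tissue in the results was not tested.

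**Figure D4:**
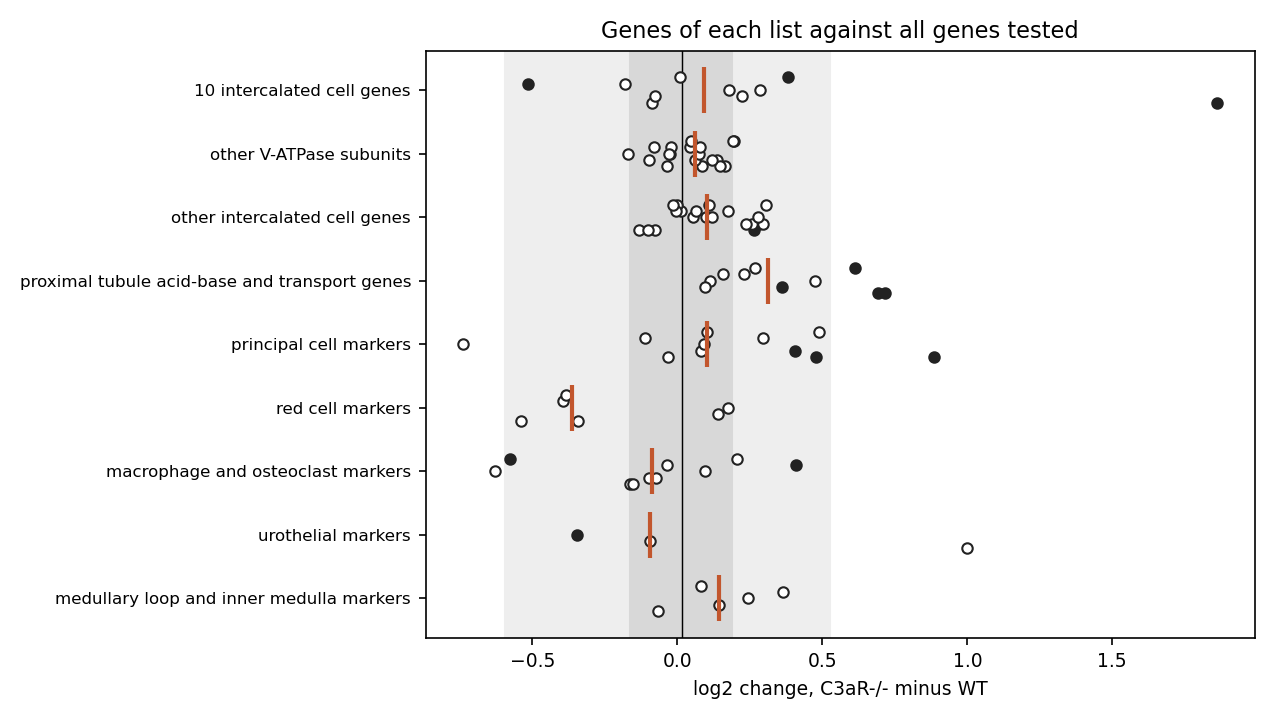
Change of each tested gene, C3aR-/- minus WT on the log2 scale, by list; filled points have an adjusted p under 0.05 and orange bars are list medians. The dark and light grey bands hold the middle 50% and 90% of all 20489 genes, and the black line is their median of 0.02. Each gene is drawn by its brightest probe; by these the 19 other V-ATPase genes lie between -0.17 and 0.20, Slc4a1 at -0.51 and Slc4a9 at 0.38.

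Across the 6 arrays, the gene most like each member in level was sought among the 10 genes, the other pump genes and the other intercalated cell genes (48 candidates each, Pearson r, no test). For Slc26a4 it was Slc4a9 (r = 0.93). For Slc4a1 it was Atp6v1g3 (r = 0.95), and the reverse held too. Atp6v1b1 was most like Kit (r = 0.96), Atp6v0d2 most like Atp6v1f (r = 0.92) and Slc4a9 most like Atp4a (r = 0.94). Foxi1 was most like Atp6v1a (r = 0.89), Car2 most like Atp6v0d1 (r = 0.96) and Rhcg most like Car15 (r = 0.77). Atp12a was left out, since its WT values are not measured. These values over 6 arrays include the step between genotypes and slides.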

How the data were processed

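Per the file headers, Agilent Feature Extraction 10.7.1.1 gave each spot of these 1-colour (Cy3) arrays a background-subtracted intensity, the processed signal. The authors also deposited a log2 table, used as an alternative only. Its columns share 1 set of sorted values to within 0.000903 and correlate with the log2 processed signal at 0.995 to 0.996, so log2 was taken as its scale. Its median was 5.38, and its centring and filtering are not given in the sources used here. Its direction is that of the arrays.

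Here the log2 processed signal was set against the array's 75th percentile (662 to 827 in signal). Control and outlier-flagged spots were left out and spots of a probe averaged. Probes well above background on all 3 arrays of a genotype were kept (30866), and the brightest stood for its gene. Of 59305 transcript spots, 56.5% to 59.3% were well above background and 0 saturated, and the number of arrays limits precision. Symbols came from RefSeq (GRCm38.p6) by accession for 32994 of 56605 probes. A further 23230 kept the array's name, and 381 unnamed ones were left out. Coordinates of probes are those of the array, mm9. The fit was limma 3.58.1 (lmFit, eBayes, two-sided) in R 4.3.3, tested on simulated data. A probe dim on all arrays of 1 genotype got a bound: the other genotype's mean against the higher of the probe's value and the array's floor. Where the probes of a gene named in the text disagree in sign this is stated. Some listed genes that are not named also have probes that disagree in sign. Counts and medians of the lists use the brightest probe of each gene.

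The genes and lists were chosen with earlier results of these data known. The text names all 10 genes, the pump partners, C3ar1, up to 4 genes of each list with the smallest p, and Hba-a1, Alas2, Aqp2, Atp6v0a4 and Slc26a7. Untested markers, Slc14a2 and Atp6v1d among them, were named after their values were seen. So were Hbb-b1, Hbb-bt, Atp6v1h, Tfcp2l1, Hepacam2, Glud1, Kcnj1, Fxyd4 and Aqp4. Results of some listed genes are not reported here. The labels do not say that replicate numbers pair the arrays. Deviations from the genotype means correlated at 0.038, -0.028 and -0.072 between arrays of 1 number. These values show no clear shared effect but cannot settle whether the arrays were paired. Alternatives were background correction, scaling, filter, floor, probe rule, array weights, a replicate block and leaving out each array. Slide could not be a block, since each slide held 1 genotype.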

Additional observations from a re-analysis of the deposited data

How the results depend on the processing

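Of 179 values of the 10 genes under 18 alternatives, 154 kept direction and call, 18 lost the call, 1 gained it and 6 turned sign. The 6 were all of Car2: -0.027 under quantile normalisation, -0.035 in the deposited log2 table, -0.02 and -0.06 without WT replicates 2 and 3, and -0.16 and -0.12 without C3aR-/- replicates 2 and 3. Leaving out 1 array moved Car2 between -0.16 and 0.30. The 18 lost calls all fell on the 3 called genes, since the other 7 had no call to lose. Slc4a1 lost its call in 6 of 18 alternatives, Slc4a9 in 7 of 18 and Atp12a in 5 of 17. With dim probes kept in, so that 36902 genes were tested, 936 genes were called in place of 2935, 0 of the 10 genes in place of 3, 1 list gene in place of 11, 0 other intercalated cell genes in place of 1 and 1 principal cell marker in place of 3. With the replicate block these counts were 657, 1, 1, 0 and 1, though the labels do not say what same-numbered arrays share. Of the 10 genes, the 1 called with the block was Atp12a, whose probe is dim in WT. Without 1 array the count of all genes was 665 to 1659, of the 10 genes 0 to 3, of list genes 1 to 6, of other intercalated cell genes 0 to 1, and of principal cell markers 1. Fewer samples were fitted there. Other intercalated cell genes called were 2 under median scaling, 3 (2 higher and 1 lower) with the mean of a gene's probes and 0 with all probes tested. The mean of a gene's probes also called 1 other V-ATPase gene in place of 0. The cause was not tested. The share of calls on the higher side was 49.3%, and 63.4% under median scaling. Slc4a1 stayed between -0.58 and -0.43 and Slc4a9 between 0.32 and 0.48 in all 18 alternatives. The dim Atp12a probe has no measured fold in WT cortex.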
